A study of Rattus norvegicus with 15 samples.

Results

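Glycolysis, lactate and pyruvate handling genes were followed in rat retina, as a set of 35 genes chosen by name and kept where the mean regularised log value (rlog, the log2 scale on which the values were deposited) over all 15 libraries was at least the log2 of 10. Of the 35 genes, 34 passed this filter, among 15424 of the 20375 listed genes that passed it. Pfkfb1, the form of the bifunctional enzyme best known from liver and muscle, was the gene that did not, with a mean rlog of 2.18 and values from 2.11 to 2.28 in the 15 libraries. The measurement was bulk RNA sequencing of retinas from wild-type Sprague-Dawley rats, labelled as postnatal week 12 and taken 31 days after transplantation, in 5 groups of 3 libraries. NT rats were healthy and untreated. Sham rats received sodium iodate (NaIO3) at 40 mg/kg, an oxidant that kills the retinal pigment epithelium (RPE) and, after it, photoreceptors, with the cell-free vehicle injected into the eye. MSC, MSCEPO and DPSC rats also received NaIO3, and before it an intravitreal injection of cultured cells. The MSC were human mesenchymal stem cells of the umbilical cord's Wharton's jelly, and MSCEPO were the same kind of cell with a lentiviral human EPO gene. DPSC are named in the labels alone, and the study's paper does not describe that group. The labels state that rats with xenografts were also given dexamethasone and then cyclosporin. Whether Sham rats were given them is not clear from the labels or the methods, and if they were not, cells and immunosuppressants cannot be told apart in comparisons of the cell groups with Sham. The study's paper speaks of biological replicates, while the labels do not tie the libraries of a group to separate animals, and the p-values measure the spread between these libraries. The deposited values hold no read counts, so the depth of each library cannot be read from them.

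Glycolysis splits glucose into pyruvate, which is either reduced to lactate by lactate dehydrogenase or carried into mitochondria and oxidised. Photoreceptors are known for aerobic glycolysis, turning most of their glucose into lactate even with oxygen at hand, and for using a hexokinase 2 that most adult neurons lack. Lactate leaves and enters cells through monocarboxylate transporters, which reach the membrane with the help of basigin, and in the RPE it crosses to the choroid.

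The glycolytic genes had a lower mean than in NT for 23 to 30 of the 34 genes in each of the 4 NaIO3 groups, and Hk2, Pfkfb2 and Slc16a1 were called lower, at an adjusted p under 0.05, in more of these groups than any other gene. Hk2 (ENSRNOG00000006116) encodes hexokinase 2, which traps glucose in the cell as its phosphate. Pfkfb2 (ENSRNOG00000004162) encodes an enzyme that makes and breaks fructose 2,6-bisphosphate, the activator of phosphofructokinase. Slc16a1 (ENSRNOG00000019996) encodes the monocarboxylate transporter MCT1. The 250 bases before the start of each of these 3 genes are shown from RefSeq in build GRCr8, a later rat assembly than the Rnor_6.0 used for the expression values, because these 3 genes were called in the most comparisons. They run 5′ to 3′ on the gene's own strand, at chr4:116841276-116841525 on the minus strand for Hk2, chr13:44726972-44727221 on the minus strand for Pfkfb2 and chr2:194812410-194812659 on the plus strand for Slc16a1. Capitals mark any match to 4 motifs looked for on both strands, the hypoxia response core ACGTG, the E-box CACGTG, which contains it, the photoreceptor homeodomain core TAATCC and the estrogen-related receptor half-site AAGGTCA.
Hk2: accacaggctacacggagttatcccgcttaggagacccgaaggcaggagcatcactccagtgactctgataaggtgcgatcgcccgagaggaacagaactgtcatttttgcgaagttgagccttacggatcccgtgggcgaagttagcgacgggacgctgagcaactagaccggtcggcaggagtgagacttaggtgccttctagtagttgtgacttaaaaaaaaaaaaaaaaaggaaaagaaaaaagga
Pfkfb2: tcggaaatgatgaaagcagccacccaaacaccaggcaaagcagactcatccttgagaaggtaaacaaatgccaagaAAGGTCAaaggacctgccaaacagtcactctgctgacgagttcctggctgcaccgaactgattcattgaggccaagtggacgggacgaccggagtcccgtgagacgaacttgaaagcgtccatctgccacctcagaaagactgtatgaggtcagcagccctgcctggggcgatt
Slc16a1: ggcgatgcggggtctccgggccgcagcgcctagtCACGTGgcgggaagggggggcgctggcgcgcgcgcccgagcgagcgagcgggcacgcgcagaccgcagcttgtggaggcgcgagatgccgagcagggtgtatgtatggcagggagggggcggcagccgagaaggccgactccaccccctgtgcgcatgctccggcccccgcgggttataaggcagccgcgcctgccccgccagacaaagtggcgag

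No match lies in the Hk2 stretch, 1 estrogen-related receptor half-site lies in that of Pfkfb2, and 1 E-box lies in that of Slc16a1. Over 300 bases (250 before and 50 after the start), 30 of the 35 genes had exactly 1 promoter in the RefSeq table, 3 had several (Hk1, Aldoa and Eno1) and 2 had none (Slc2a3 and Pgk1). ACGTG was present in 15 of these 30 promoters (50%) and in 19.3% of all 33469 promoters of that length. CACGTG was present in 5 of 30 (16.7%, against 6.42% of all), AAGGTCA in 3 of 30 (10%, against 4.61%; Tpi1, Pfkfb2 and Slc16a8) and TAATCC in 1 of 30 (3.33%, against 7.17%; Pgam1). A match is a stretch of letters and not a measured binding site. Base composition was not matched, although ACGTG and CACGTG both hold the letters CG. The 33469 promoters also include those of genes with several, which were left out of the 30. Whether any motif was enriched was not tested.

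Some libraries stood apart before any glycolytic gene was considered. Lens genes were raised in MSCEPO 3, DPSC 1 and DPSC 3, whose mean over 6 lens markers lay 4.07, 5.83 and 5.02 above the NT mean on the rlog scale, whereas the other 12 libraries lay between -1.17 and 2.67. MSCEPO 3 also had the lowest median rlog over the tested genes, 8.63 against 8.68 to 8.82 in the other libraries. Its values of the bipolar cell markers Prkca and Trpm1 were the lowest too, at 10.23 and 11.13, against at least 11.53 and 12.42 elsewhere. MSC 1 had the highest lymphocyte markers, 3.35 above NT for T and NK cells (7 genes) and 4.77 for B cells (4 genes). Rod markers (10 genes) lay -0.81 to -0.63 from the NT mean in Sham, -1.42 to -1.20 in MSC, -1.70 to -1.30 in MSCEPO and -1.48 to -0.72 in DPSC, against -0.05 to 0.04 in NT. In those groups 1, 9, 9 and 8 of them were called lower than NT (0.331%, 6.37%, 5.81% and 1.41% of all genes). RPE markers (8 genes) averaged -0.73, -1.25, -0.98 and -0.62, with NT libraries from -0.54 to 0.51, and macrophage and microglia markers (9 genes) averaged 1.31, 2.43, 1.93 and 1.33. Cone markers (7 genes) averaged -0.28, -0.55, -0.66 and -0.56, Müller glia (7 genes) 0.15, 0.26, 0.27 and 0.24, bipolar cells (6 genes) -0.11, -0.30, -0.21 and -0.21, amacrine and ganglion cells (8 genes) -0.04, -0.47, -0.27 and -0.21, endothelium (4 genes) 0.49, 0.32, 0.41 and 0.25, and erythrocytes (2 genes) 0.64, 0.29, 1.15 and 1.35. In bulk tissue, fewer cells of a type and less RNA per cell cannot be told apart, and how far any of these cell types set the glycolytic values was not tested.

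**Figure D1:**
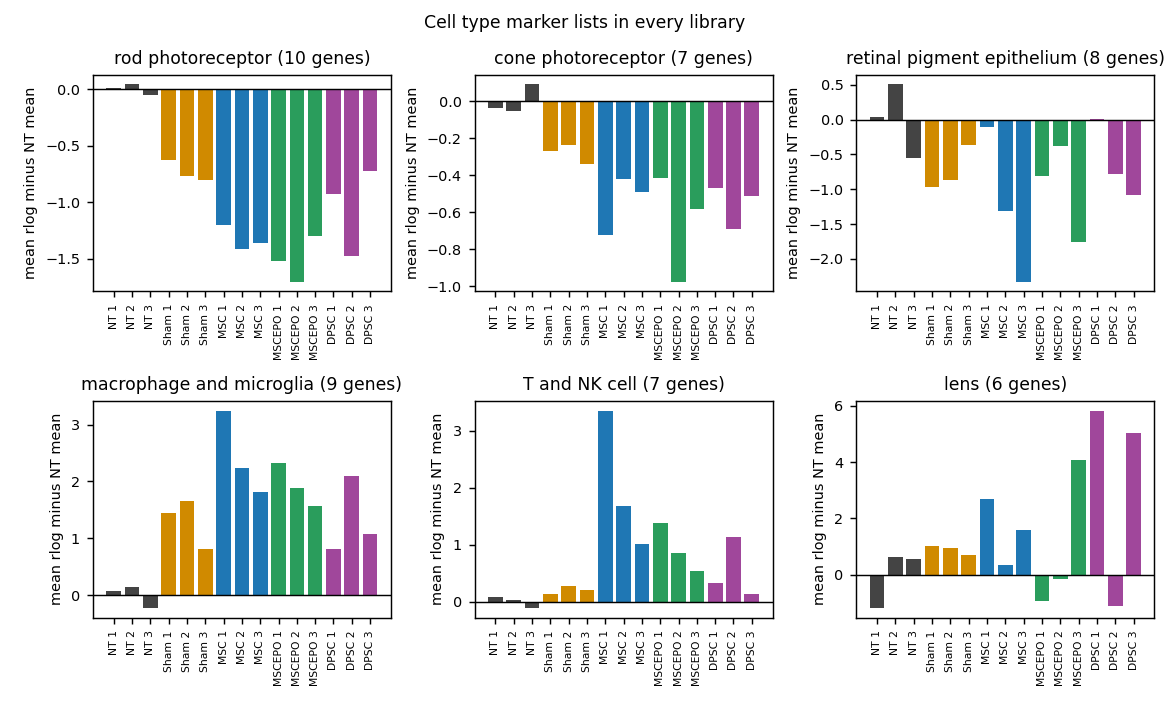
Mean rlog of each marker list minus its NT mean (log2 units, vertical axis) in each of the 15 libraries (horizontal axis), coloured by group. Rod bars point down in all 12 NaIO3 libraries, macrophage and microglia bars point up in all 12, and the tallest lens bars are MSCEPO 3, DPSC 1 and DPSC 3.

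The first question was how the glycolytic genes of Sham retinas, after NaIO3 and the vehicle injection, differed from those of NT. The NT rats had neither, so NaIO3, the injection and any immunosuppressants cannot be told apart here. Sham was compared with NT, with limma fitted on all 15 libraries and p-values adjusted over all 15424 genes. In Sham, 2 of the 34 genes passed an adjusted p of 0.05, both lower than NT (0.331% of all genes tested were called lower and 0.558% higher), and 23 of 34 had a lower mean than NT. The median log2 fold change was -0.14 over the 34 genes and 0.00 over all genes. The 3 Sham libraries lay wholly below the 3 NT libraries for 9 of the genes (15.3% of all genes did so) and wholly above for 2, Hk1 and Pdk2 (16.6% of all genes). The 2 genes called were Pfkfb2 and Slc16a1. Both calls depended on the libraries: Pfkfb2 was lost when NT 2, NT 3, Sham 1 or Sham 2 was left out (adjusted p up to 0.0934), and Slc16a1 was lost when any single NT or Sham library was left out (up to 0.118).

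The cell groups were compared with NT in the same fit. MSC had 14 of 34 genes called, 13 lower (6.37% of all genes were lower) and 1 higher (11.0% of all genes were higher). MSCEPO had 8 called lower and none higher (5.81% and 5.83% of all genes), and DPSC had 3 called lower and none higher (1.41% and 1.43%). Lower means than NT were found for 28 genes in MSC, 30 in MSCEPO and 29 in DPSC, with median log2 fold changes of -0.42, -0.26 and -0.20, against 0.00 for all genes in each comparison. All 3 libraries lay below all of NT for 21 genes in MSC (21.2% of all genes), for 11 in MSCEPO (2307 of the 15424 genes) and for 11 in DPSC (15.7%). Without MSCEPO 3, DPSC 1 and DPSC 3, the libraries with high lens markers, the counts called lower were 18, 16 and 10 of 34 in MSC, MSCEPO and DPSC (12.1%, 9.95% and 5.07% of all genes), although DPSC is then 1 library whose spread is assumed to be that of the others. The median over the 34 genes was then -0.37 in both MSCEPO and DPSC. The 4 comparisons with NT share the 3 NT libraries and are not independent of each other.

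**Figure D2:**
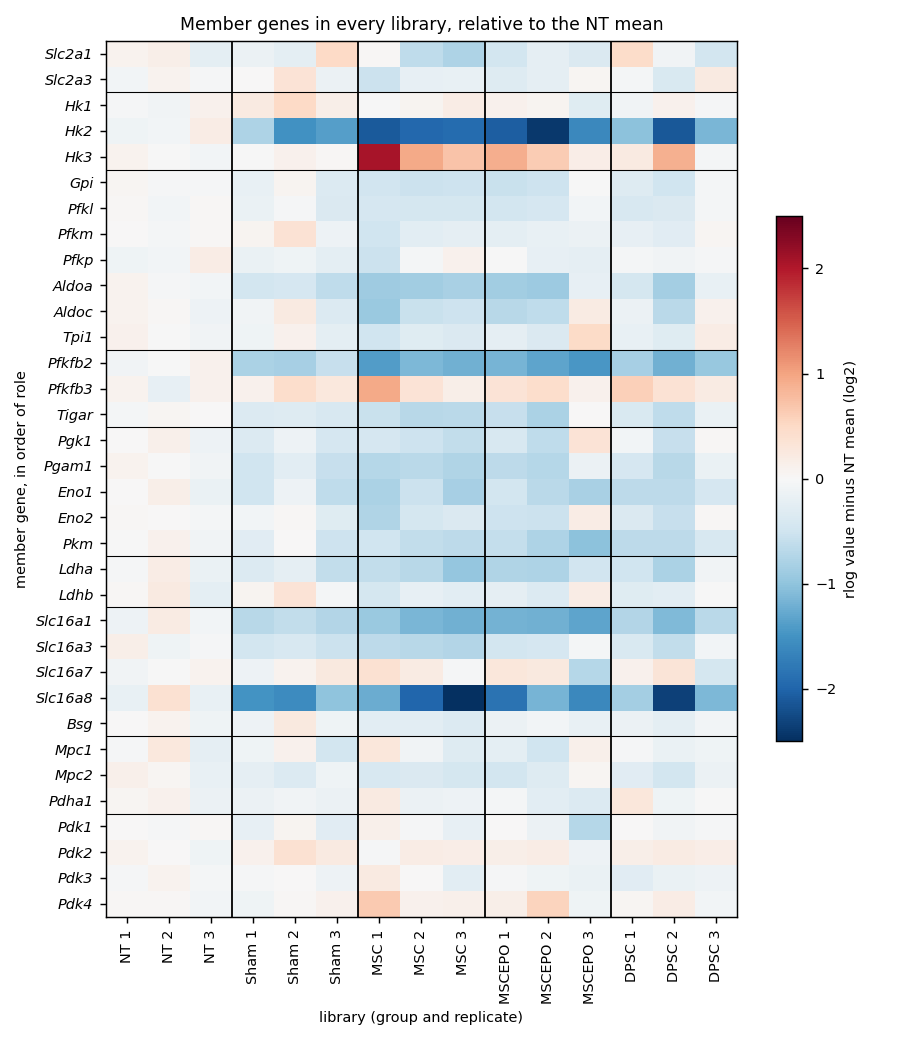
Each of the 34 tested genes (rows, ordered by role) in each of the 15 libraries (columns), as the rlog value minus the NT mean in log2 units. Hk2, Pfkfb2, Slc16a1 and Slc16a8 are blue in all 12 NaIO3 libraries, while Hk3 is reddest in MSC 1, and the colour scale stops short of the lowest value, Slc16a8 in MSC 3.

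Neither glucose transporter was called in any comparison. Slc2a1 encodes GLUT1, which brings glucose across the blood-retina barrier and into photoreceptors, and Slc2a3 encodes the neuronal GLUT3. Slc2a1 ranged from rlog 11.51 in MSC 3 to 12.77 in Sham 3, and each NaIO3 group overlapped NT. Its log2 fold change against NT was 0.04 in Sham, -0.46 in MSC, -0.34 in MSCEPO and -0.02 in DPSC, with 95% intervals that all included 0 (-1.02 to 0.11 in MSC). Slc2a3 ranged from 9.63 to 10.51 and was not called in any comparison, with a log2 fold change of -0.31 in MSC (-0.68 to 0.05).

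Hexokinases, which commit glucose to the pathway, went separate ways. Hk2 had rlog values of 13.90, 13.94 and 14.19 in NT and 13.24, 12.49 and 12.64 in Sham. In MSC its values were 11.90, 12.05 and 12.09, in MSCEPO 11.95, 11.60 and 12.40, and in DPSC 12.98, 11.90 and 12.86. Every NaIO3 library was thus below every NT library, and the 3 MSC libraries lay close together (SD 0.10). Hk2 fell in all 3 cell groups against NT. On the log2 scale it fell by 2.00 in MSC (SE 0.28, adjusted p = 0.00116), and its log2 fold changes were -2.03 in MSCEPO (SE 0.28, adjusted p = 0.000864) and -1.43 in DPSC (SE 0.28, adjusted p = 0.0186), which are decreases of 3.99-fold, 4.07-fold and 2.69-fold. In Sham its log2 fold change was -1.22 (SE 0.28), which missed the threshold in this fit (adjusted p = 0.0659). It passed with the 12 libraries that leave out DPSC (0.0296), with Sham and NT alone (0.0131) and without the libraries with high lens markers (0.00648). Hk2 in Sham was not called when any 1 NT or Sham library was left out. The DPSC call was lost when any 1 NT library or DPSC 2 was left out (adjusted p up to 0.0939), and without the libraries with high lens markers, which leaves DPSC 2 alone, the log2 fold change was -2.11.

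Hk1, the hexokinase of most neurons, did not follow Hk2. It lay between rlog 11.91 and 12.11 in NT and between 11.70 and 12.50 elsewhere, with log2 fold changes against NT of 0.29 in Sham (95% interval 0.01 to 0.56, adjusted p = 0.374), 0.09 in MSC, -0.04 in MSCEPO and 0.00 in DPSC. Hk3, the hexokinase of myeloid blood cells, was the only gene of the set called higher in any comparison of this fit. Its rlog was 3.66, 3.57 and 3.51 in NT, 3.57, 3.68 and 3.62 in Sham, 5.64, 4.53 and 4.30 in MSC, 4.48, 4.22 and 3.75 in MSCEPO and 3.81, 4.46 and 3.52 in DPSC. All 3 MSC libraries were above NT, MSC 1 most of all, and MSCEPO did not overlap NT either. The log2 rise in MSC was 1.24 (SE 0.31, adjusted p = 0.0171), and 0.83 without MSC 1 (adjusted p = 0.0482), and the call was lost without NT 2 or NT 3 (up to 0.0602). The 9 macrophage and microglia markers stood 3.24, 2.24 and 1.81 above the NT mean in MSC 1, MSC 2 and MSC 3. All 9 were called higher in MSC (11.0% of all genes were), and their part in the Hk3 values was not tested.

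Upper glycolysis takes glucose phosphate to 3-carbon sugars. Of its 7 genes, none was called in Sham, 3 were called lower in MSC, 1 in MSCEPO and none in DPSC. Of all genes tested, 0.331%, 6.37%, 5.81% and 1.41% were called lower in Sham, MSC, MSCEPO and DPSC. Aldoa, an aldolase that splits the 6-carbon sugar, had rlog values of 15.01, 14.89 and 14.85 in NT, 14.46, 14.50 and 14.29 in Sham, 14.03, 14.06 and 14.11 in MSC, 14.04, 14.01 and 14.71 in MSCEPO and 14.48, 14.06 and 14.73 in DPSC. All 12 NaIO3 libraries were below NT, with MSCEPO 3, DPSC 1 and DPSC 3 nearest to it among the cell-treated libraries. Aldoa fell by 0.85 in MSC (SE 0.19, adjusted p = 0.0109) and fell by 0.66 in MSCEPO (SE 0.19, adjusted p = 0.0432), and its values in Sham (-0.50, adjusted p = 0.290) and DPSC (-0.49, adjusted p = 0.209) did not pass. Without the libraries with high lens markers the log2 fold change in MSCEPO was -0.89, which was called (adjusted p = 0.000409). In DPSC, where DPSC 2 alone was then left, it was -0.86.

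Gpi, which turns glucose 6-phosphate into fructose 6-phosphate, had rlog values of 13.71, 13.63 and 13.63 in NT, 13.48, 13.72 and 13.32 in Sham, 13.18, 13.12 and 13.13 in MSC, 13.10, 13.15 and 13.64 in MSCEPO and 13.34, 13.16 and 13.60 in DPSC. The MSC libraries lay below NT, while Sham 2 was above all of NT and MSCEPO 3 was within its range. Gpi fell by 0.52 in MSC (SE 0.15, adjusted p = 0.0374), a call lost when any 1 MSC or NT library was left out. Pfkl, the liver-type subunit of phosphofructokinase, had rlog values of 12.91, 12.81 and 12.91 in NT, 12.72, 12.84 and 12.52 in Sham, 12.45, 12.43 and 12.44 in MSC, 12.42, 12.45 and 12.80 in MSCEPO and 12.48, 12.52 and 12.83 in DPSC. The MSC libraries lay close together (SD 0.01) and below all of NT, and Pfkl fell by 0.44 there (SE 0.12, adjusted p = 0.0304), again a call lost without any 1 of the 6 libraries. The muscle-type subunit Pfkm (rlog 11.10 to 11.95), the platelet-type Pfkp (11.98 to 12.69), the neural aldolase Aldoc (13.52 to 14.67) and triose phosphate isomerase Tpi1 (12.73 to 13.71) were not called in any comparison. Their log2 fold changes in MSC against NT were -0.33, -0.16, -0.67 and -0.38, of which the 95% intervals for Pfkm (-0.59 to -0.06) and Aldoc (-1.21 to -0.12) did not include 0.

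Control of fructose 2,6-bisphosphate showed a split within the group. Pfkfb2 had rlog values of 11.62, 11.71 and 11.82 in NT, 10.92, 10.90 and 11.14 in Sham, 10.33, 10.59 and 10.52 in MSC, 10.55, 10.40 and 10.27 in MSCEPO and 10.89, 10.52 and 10.78 in DPSC. It was below NT in all 12 NaIO3 libraries, and below all 3 Sham libraries in each of the 9 cell-treated ones. Pfkfb2 fell in every NaIO3 group against NT, with log2 fold changes of -0.73 in Sham (SE 0.12, adjusted p = 0.0130), -1.24 in MSC (SE 0.12, adjusted p = 0.000197), -1.31 in MSCEPO (SE 0.12, adjusted p = 7.61e-05) and -0.99 in DPSC (SE 0.12, adjusted p = 0.00144). These are decreases of 1.66-fold, 2.36-fold, 2.49-fold and 1.98-fold. Pfkfb3, the form whose kinase activity prevails, was on the other side, at rlog 9.28 to 9.60 in NT and 9.59 to 10.43 elsewhere, with log2 fold changes of 0.27, 0.48, 0.30 and 0.39 in Sham, MSC, MSCEPO and DPSC that did not pass (adjusted p from 0.0970 to 0.648). Tigar, a phosphatase that lowers fructose 2,6-bisphosphate, had rlog values of 9.20, 9.30 and 9.25 in NT, 8.90, 8.92 and 8.85 in Sham, 8.69, 8.56 and 8.58 in MSC, 8.67, 8.46 and 9.25 in MSCEPO and 8.87, 8.61 and 9.08 in DPSC. Only MSCEPO 3 of the NaIO3 libraries reached the NT range, and Tigar fell by 0.64 in MSC (SE 0.17, adjusted p = 0.0228), a call lost without MSC 2 or any 1 NT library.

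**Figure D3:**
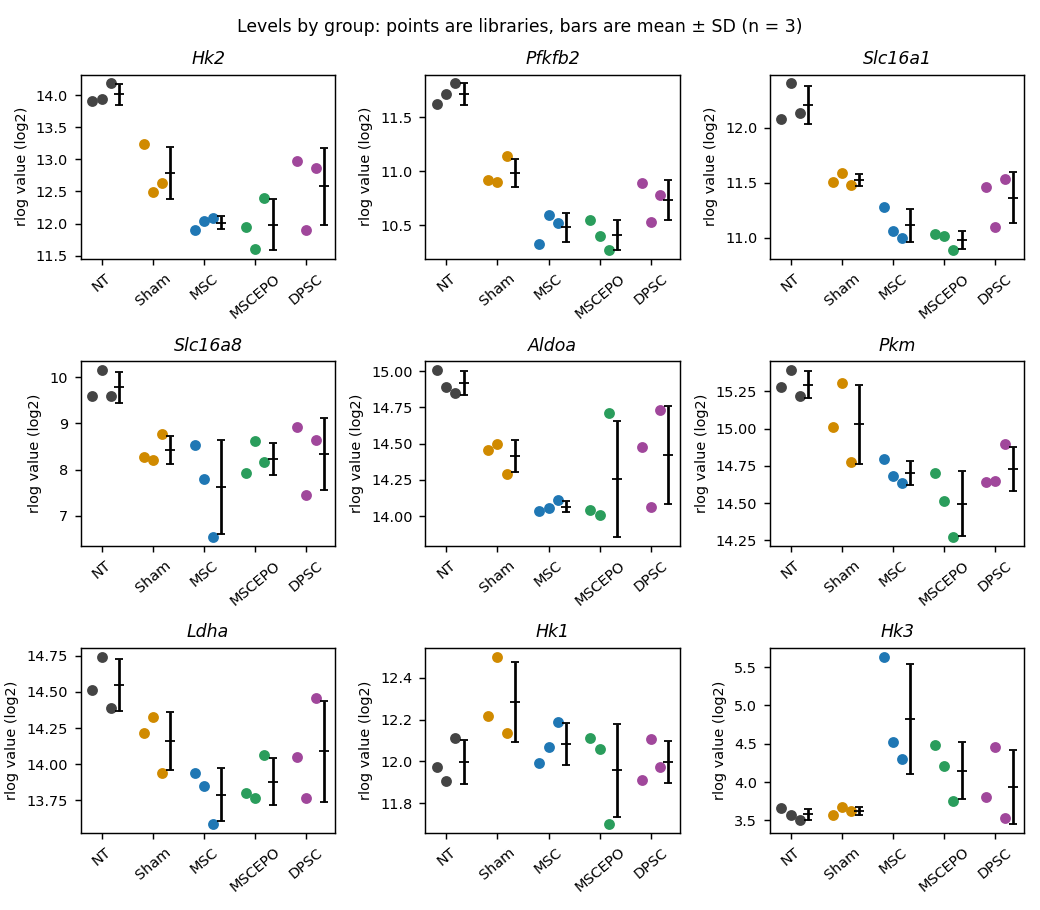
Levels (rlog, log2 units, vertical axes with their own ranges) of 9 genes by group; points are libraries and bars the mean ± SD of 3. Hk2, Pfkfb2, Slc16a1, Slc16a8 and Aldoa lie below NT in every NaIO3 library, Hk1 overlaps NT in MSC, MSCEPO and DPSC, and Hk3 is highest in MSC 1.

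Lower glycolysis, the steps that yield ATP and pyruvate, was lower by mean for all 5 genes in all 4 comparisons with NT. Of these genes, 3 were called in MSC, 2 in MSCEPO and none in Sham or DPSC. The shares of all genes called lower were 6.37% in MSC, 5.81% in MSCEPO, 0.331% in Sham and 1.41% in DPSC. Pgam1, phosphoglycerate mutase, had rlog values of 13.87, 13.78 and 13.70 in NT, 13.29, 13.52 and 13.20 in Sham, 13.08, 13.11 and 13.04 in MSC, 13.13, 13.08 and 13.63 in MSCEPO and 13.36, 13.09 and 13.61 in DPSC. None of these 12 NaIO3 values reached the NT range, and Pgam1 fell by 0.71 in MSC (SE 0.16, adjusted p = 0.0101). Eno1, the ubiquitous enolase, had rlog values of 15.07, 15.20 and 14.89 in NT, 14.57, 14.93 and 14.41 in Sham, 14.26, 14.52 and 14.23 in MSC, 14.60, 14.38 and 14.24 in MSCEPO and 14.40, 14.40 and 14.63 in DPSC. It overlapped NT only in Sham, and fell by 0.72 in MSC (SE 0.16, adjusted p = 0.00916) and fell by 0.65 in MSCEPO (SE 0.16, adjusted p = 0.0192). Pkm, pyruvate kinase, had rlog values of 15.28, 15.39 and 15.22 in NT, 15.01, 15.30 and 14.77 in Sham, 14.79, 14.68 and 14.63 in MSC, 14.70, 14.51 and 14.27 in MSCEPO and 14.64, 14.65 and 14.90 in DPSC. The cell-treated libraries all lay below NT while Sham overlapped it, and Pkm fell by 0.59 in MSC (SE 0.15, adjusted p = 0.0200) and fell by 0.80 in MSCEPO (SE 0.15, adjusted p = 0.00602). The values are per gene, so the M1 and M2 forms of pyruvate kinase cannot be read from them.

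Several of these calls rested on few libraries. The Pkm call in MSC was lost without NT 1, NT 2 or MSC 2, the Eno1 call in MSCEPO without NT 1, NT 2 or MSCEPO 2, and the Aldoa call in MSCEPO without MSCEPO 1, MSCEPO 2 or any 1 NT library. With quantile normalization the log2 fold changes in MSCEPO were -0.32 for Aldoa (adjusted p = 0.262) and -0.37 for Eno1 (adjusted p = 0.133), neither of them called. Aldoa in MSCEPO lost its call in 10 of 15 alternatives, the 2-fold rule, no filter, only the 2 groups compared and median centring among them. Pgk1, phosphoglycerate kinase, ranged from rlog 13.00 to 13.96 and Eno2, the neuronal enolase, from 13.45 to 14.40, and their values in MSC against NT (-0.51 and -0.52) did not pass (adjusted p = 0.131 and 0.101).

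Lactate dehydrogenase subunits came next. Ldha, the subunit favoured for lactate production, had rlog values of 14.51, 14.74 and 14.39 in NT, 14.21, 14.33 and 13.94 in Sham, 13.94, 13.85 and 13.59 in MSC, 13.80, 13.77 and 14.06 in MSCEPO and 14.05, 13.76 and 14.46 in DPSC. Sham, MSC and MSCEPO lay below NT, and DPSC 3 was the NaIO3 library within the NT range. Ldha fell by 0.76 in MSC (SE 0.18, adjusted p = 0.0132) and fell by 0.67 in MSCEPO (SE 0.18, adjusted p = 0.0305), with the first call lost without NT 2 and the second without MSCEPO 1, MSCEPO 2 or any 1 NT library. The MSCEPO value was -0.40 with quantile normalization (adjusted p = 0.0874). Ldhb, the subunit favoured for lactate use, ranged from 11.65 to 12.12 in NT and from 11.47 to 12.23 elsewhere, and was not called, with log2 fold changes of 0.12, -0.30, -0.13 and -0.19 in Sham, MSC, MSCEPO and DPSC.

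Of the 5 genes of monocarboxylate transport, 1 was called lower in Sham, 3 in MSC, 2 in MSCEPO and 1 in DPSC. Among all genes tested, 0.331%, 6.37%, 5.81% and 1.41% were called lower in these groups. Slc16a1 had rlog values of 12.08, 12.41 and 12.13 in NT, 11.51, 11.59 and 11.48 in Sham, 11.28, 11.06 and 11.00 in MSC, 11.03, 11.01 and 10.88 in MSCEPO and 11.46, 11.10 and 11.53 in DPSC. It was below NT in all 12 NaIO3 libraries, and MSC and MSCEPO lay below all of Sham as well. Slc16a1 fell in each group, with log2 fold changes of -0.68 in Sham (SE 0.13, adjusted p = 0.0249), -1.09 in MSC (SE 0.13, adjusted p = 0.000437), -1.23 in MSCEPO (SE 0.13, adjusted p = 0.000165) and -0.84 in DPSC (SE 0.13, adjusted p = 0.00467), which are decreases of 1.61-fold, 2.13-fold, 2.34-fold and 1.79-fold. Slc16a8 encodes MCT3, the transporter through which the RPE passes lactate to the choroid. Its rlog values were 9.59, 10.16 and 9.58 in NT, 8.28, 8.20 and 8.77 in Sham, 8.53, 7.80 and 6.54 in MSC, 7.92, 8.62 and 8.16 in MSCEPO and 8.93, 7.45 and 8.65 in DPSC. All 12 were below NT, with MSC 3 lowest, and the spread within MSC was the widest of any of the 34 genes in any group (SD 1.01). Slc16a8 fell by 2.15 in MSC (SE 0.46, adjusted p = 0.00800) and fell by 1.55 in MSCEPO (SE 0.46, adjusted p = 0.0473), whereas -1.36 in Sham (adjusted p = 0.221) and -1.43 in DPSC (adjusted p = 0.121) did not pass.

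The 8 RPE markers, which include no gene of the set, were also lowest in MSC 3, at -2.33 from the NT mean, against -0.10 in MSC 1 and -1.31 in MSC 2. In DPSC their mean was 0.01, -0.78 and -1.08 in libraries 1, 2 and 3, and Slc16a8 was lowest in DPSC 2. The single markers were divided there. Rpe65, Ttr, Rdh5, Rgr and Best1 were lowest in DPSC 2, and Lrat, Tyr and Pmel in DPSC 3. Tyr and Pmel also varied within NT, with rlog values of 7.36 and 9.81 in NT 3 against 9.77 and 11.95 in NT 1. The share of RPE attached to each dissected retina was not measured and its part in the Slc16a8 values was not tested. Without MSC 3 the log2 fold change of Slc16a8 in MSC was -1.61 (adjusted p = 0.0161), and the MSCEPO call was lost when any 1 NT or MSCEPO library was left out (adjusted p up to 0.160) and without the libraries with high lens markers (adjusted p = 0.0510).

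Slc16a3, which encodes the lactate exporter MCT4, had rlog values of 9.27, 9.02 and 9.10 in NT, 8.66, 8.73 and 8.59 in Sham, 8.48, 8.43 and 8.40 in MSC, 8.68, 8.70 and 9.09 in MSCEPO and 8.75, 8.52 and 9.07 in DPSC. Sham and MSC lay below NT, and MSCEPO 3 and DPSC 3 were within its range. Slc16a3 fell by 0.69 in MSC (SE 0.14, adjusted p = 0.00680), and was not called in Sham (-0.47, adjusted p = 0.172), MSCEPO (-0.31) or DPSC (-0.35). Slc16a7, which encodes the neuronal transporter MCT2, ranged from 6.73 to 6.92 in NT and from 6.11 to 7.20 elsewhere, with log2 fold changes of 0.07, 0.18, -0.06 and 0.00. Bsg, basigin, ranged from 13.37 to 13.95, and its log2 fold changes against NT were 0.00 in Sham, -0.29 in MSC (95% interval -0.52 to -0.05, adjusted p = 0.0863), -0.14 in MSCEPO and -0.15 in DPSC.

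**Figure D4:**
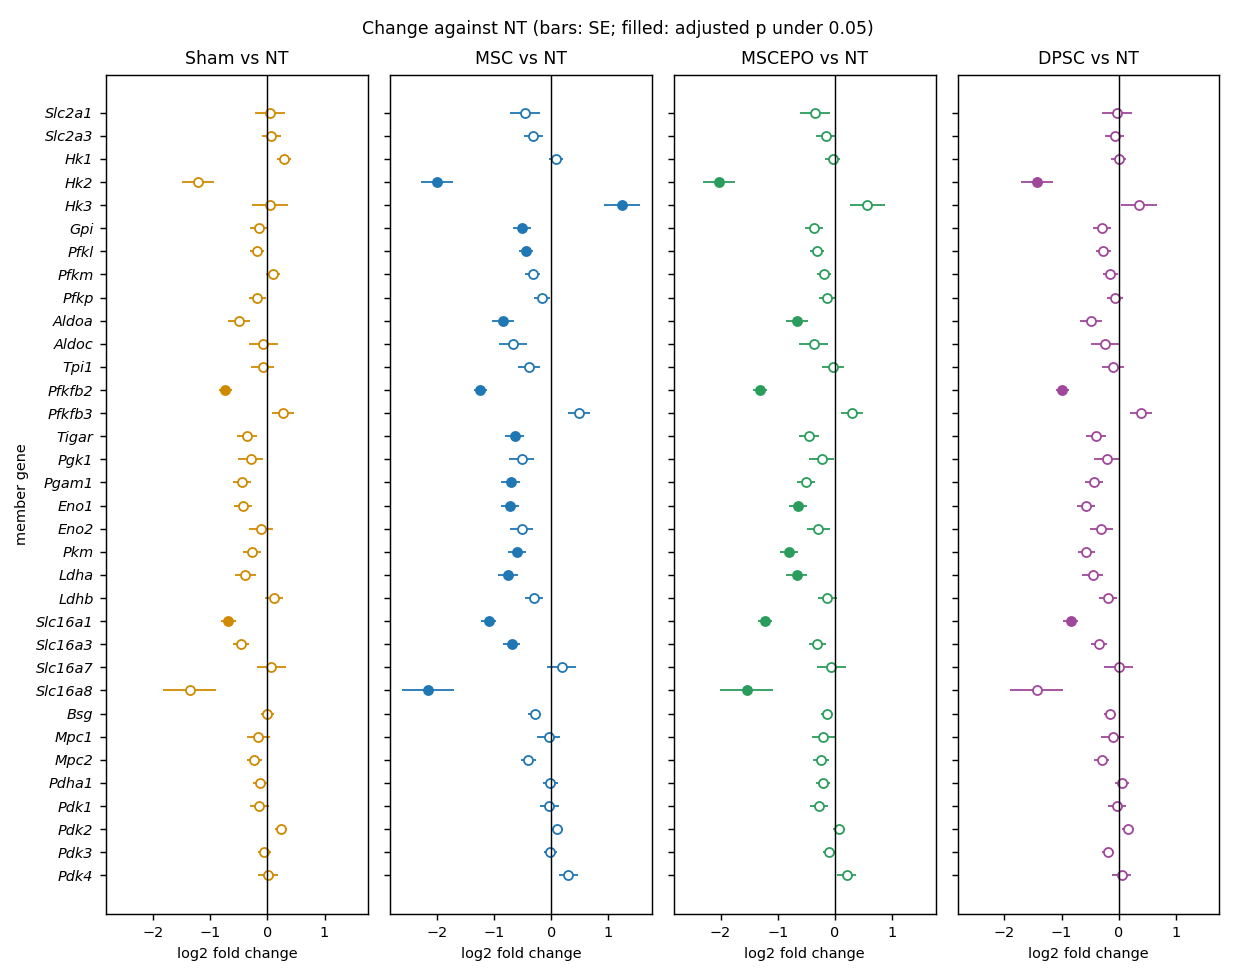
Log2 fold change against NT (horizontal axis) of the 34 tested genes (rows, ordered by role) in Sham, MSC, MSCEPO and DPSC, with SE bars and filled points where the adjusted p is under 0.05. Filled points number 2, 14, 8 and 3, and every one except Hk3 in MSC lies left of 0.

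Mitochondrial entry of pyruvate and the kinases that close it were not called in any comparison of this fit. Mpc1 and Mpc2, which together form the mitochondrial pyruvate carrier, had log2 fold changes against NT between -0.20 and -0.04 and between -0.40 and -0.23 over the 4 groups. The lowest, Mpc2 in MSC (95% interval -0.69 to -0.11), had an adjusted p of 0.0598. Pdha1, the catalytic subunit of pyruvate dehydrogenase, lay between -0.21 and 0.05. The pyruvate dehydrogenase kinases Pdk1 to Pdk4, which switch that enzyme off, lay between -0.28 (Pdk1 in MSCEPO) and 0.30 (Pdk4 in MSC), and the 95% interval excluded 0 only for Pdk2 in Sham (0.01 to 0.47, adjusted p = 0.384). The number of tested genes lower by mean in MSC was 3 of 3 for carrier and dehydrogenase and 2 of 4 for the kinases.

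Changes were then set between partner isozymes inside each library, which removes any scaling shared by both. These 6 pairs were chosen after the values had been seen, and 3 libraries against 3 cannot give a two-sided exact permutation p below 0.1. Hk2 relative to Hk1 was -0.08, 0.02 and 0.06 from the NT mean in the NT libraries on the log2 scale. It was -0.98, -2.02 and -1.51 in Sham, -2.10, -2.03 and -2.11 in MSC, -2.17, -2.47 and -1.31 in MSCEPO and -0.94, -2.22 and -1.12 in DPSC. All 12 values were below NT, and the mean change was -1.51, -2.08, -1.98 and -1.43 (exact permutation p = 0.1 in each, n = 3 against 3). Pfkfb2 relative to Pfkfb3 lay between -1.27 and -0.84 in the Sham libraries and changed by -1.72, -1.61 and -1.38 in MSC, MSCEPO and DPSC, and Slc16a1 relative to Slc16a7 by -0.75, -1.28, -1.17 and -0.84 in Sham, MSC, MSCEPO and DPSC, again with no overlap with NT (exact permutation p = 0.1 in each). Ldha relative to Ldhb changed less, by -0.51, -0.46, -0.54 and -0.27, with no overlap either (exact permutation p = 0.1). Aldoa relative to Aldoc (-0.44, -0.18, -0.29 and -0.26) overlapped NT in MSC, and Eno1 relative to Eno2 (-0.31, -0.20, -0.36 and -0.28) overlapped NT in MSC, MSCEPO and DPSC, with exact permutation p from 0.2 to 0.4 where they overlapped.

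**Figure D5:**
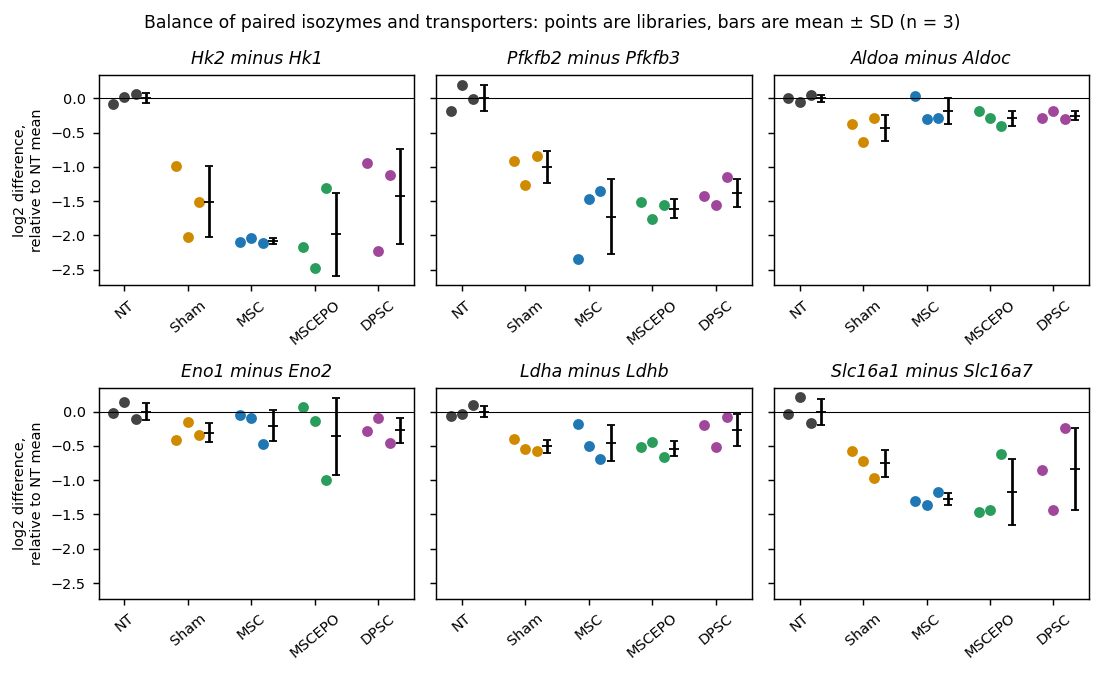
Log2 difference between partner genes within each library, set to 0 at the NT mean (vertical axis), by group, with points for libraries and bars for mean ± SD of 3. All 12 NaIO3 libraries lie below NT for Hk2 minus Hk1, Pfkfb2 minus Pfkfb3, Ldha minus Ldhb and Slc16a1 minus Slc16a7, while Eno1 minus Eno2 overlaps NT in MSC, MSCEPO and DPSC.

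The next question was whether cell treatment altered the glycolytic genes relative to NaIO3 with the vehicle injection. None of the 34 genes was called by limma in MSC, MSCEPO or DPSC against Sham, with 0, 4 (0.0259%) and 3 (0.0195%) of all genes called, each of them lower. At an unadjusted p under 0.05, MSC against Sham had 9 genes lower and 1 higher (3.82% and 9.49% of all genes), MSCEPO 6 lower and none higher (5.12% and 3.19%) and DPSC 1 lower and none higher (1.39% and 0.985%). Means were lower than Sham for 25, 27 and 23 of 34 genes, with median log2 fold changes of -0.28, -0.15 and -0.07, against 0.00, 0.00 and 0.01 over all genes. MSC lay wholly below Sham for 19 of the genes (11.3% of all genes), MSCEPO for 6 (6.81%) and DPSC for 3 (5.07%). Rod markers were lower than in Sham too, at -1.33 in MSC and -1.51 in MSCEPO against -0.73 in Sham, relative to NT, and their part in these values was not tested.

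For the 3 genes whose promoters were shown, the Sham mean lay between that of NT and that of each cell group. The differences from Sham were therefore smaller than those from NT. Pfkfb2 was -0.51 (SE 0.12, adjusted p = 0.134) in MSC, -0.58 (SE 0.12, adjusted p = 0.122) in MSCEPO and -0.26 (SE 0.12, adjusted p = 1.00) in DPSC against Sham. Slc16a1 was -0.41, -0.55 and -0.16 (95% intervals -0.68 to -0.14, -0.82 to -0.28 and -0.43 to 0.11), and Hk2 was -0.78, -0.81 and -0.21 (-1.38 to -0.17, -1.41 to -0.20 and -0.82 to 0.40). Hk3 was 1.20 in MSC (SE 0.31, adjusted p = 0.134), with all MSC libraries above Sham. Without the libraries with high lens markers, Pfkfb2 was called in MSC (-0.51, adjusted p = 0.0326) and in MSCEPO (-0.51, adjusted p = 0.0499), and Hk2 was called in MSCEPO (-1.01, adjusted p = 0.0402), with 0.804% and 1.06% of all genes called lower in MSC and MSCEPO. The medians over the 34 genes were then -0.22 in MSCEPO and -0.24 in DPSC. The comparisons with Sham share its 3 libraries.

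MSCEPO was compared with MSC, the same kind of cell without the EPO gene. By the paper's methods, the MSCEPO cells also carried a GFP marker and were sorted after lentiviral transduction. No group had transduced cells without EPO, so the gene and these steps cannot be told apart. No glycolytic gene was called, and no gene of the 15424 was, by limma at the adjusted threshold. At an unadjusted p under 0.05, 1 glycolytic gene was higher, Slc16a3 (0.39, 95% interval 0.08 to 0.70, adjusted p = 0.754), and none was lower, against 0.966% and 2.83% of all genes. The intervals for the difference were -0.64 to 0.58 for Hk2, -0.33 to 0.18 for Pfkfb2 and -0.41 to 0.14 for Slc16a1, so log2 differences of that size were not excluded by these data. Means were higher in MSCEPO for 20 genes and lower for 14, with a median of 0.10. Without MSCEPO 3 and the DPSC libraries with high lens markers, they were higher for 17 and lower for 17, with a median of 0.00, and Slc16a3 was at 0.25.

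Neighbouring pathways were described from lists of other genes. Of all genes tested, 6.37% were called lower and 11.0% higher in MSC against NT. The shares were 5.81% and 5.83% in MSCEPO, and 1.41% and 1.43% in DPSC. The lists are short, and whether any of them was called more often than all genes was not tested. Among 11 tested isozymes and transporters of glycolysis outside the set, Gapdh alone was called, at -0.79 in MSC (adjusted p = 0.0109) and -0.89 in MSCEPO (adjusted p = 0.00764). In the pyruvate dehydrogenase complex, 2 of 7 genes were called lower in MSC and MSCEPO and none in Sham or DPSC, these being Dld, its dihydrolipoamide dehydrogenase (-0.36 and -0.42), and Pdp2, a phosphatase that reactivates it (-0.77 and -0.70). The mean over the 7 genes lay -0.54 from NT in MSCEPO 3, against -0.24 and -0.31 in MSCEPO 1 and MSCEPO 2. In the TCA cycle, 2 of 16 genes were called lower in MSC (Idh3a, -0.37, and Mdh2, -0.37), Idh3a in MSCEPO (-0.42) and none in Sham or DPSC. None of 7 pentose phosphate genes and neither Pc nor G6pc3, the tested genes of pyruvate carboxylation and gluconeogenesis, was called in any comparison with NT. Of 7 glycogen genes, only Pygl was called, and it rose by 0.61 in MSC, 0.49 in MSCEPO and 0.67 in DPSC. Pygl encodes the liver form of glycogen phosphorylase, which frees glucose from glycogen.

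Regulators of glycolytic genes included some of the largest differences. Of 11 tested, 1 was called lower in Sham, 2 were called in each direction in MSC, 2 higher and 4 lower in MSCEPO, and 2 lower in DPSC. Of all genes, 0.331% were called lower in Sham, 11.0% higher and 6.37% lower in MSC, 5.83% and 5.81% in MSCEPO, and 1.41% lower in DPSC. The mean over the 11 genes lay -0.59 from NT in MSCEPO 3, against -0.12 and -0.18 in MSCEPO 1 and MSCEPO 2. Esrrb, a nuclear receptor known from rods, was -1.19 in Sham (adjusted p = 0.0499), -2.12 in MSC (adjusted p = 0.000485), -2.54 in MSCEPO (adjusted p = 0.000157) and -1.51 in DPSC (adjusted p = 0.00892). Nxnl1, which encodes the rod-derived cone viability factor, a ligand of basigin, was -1.23 in MSC, -1.12 in MSCEPO and -0.76 in DPSC, each called. Myc, a transcription factor that binds E-boxes, rose by 1.38 in MSC and by 1.01 in MSCEPO. The other calls, named after their values were seen, were Egln3 higher in MSC and MSCEPO (0.61 and 0.67), and Egln1 and Ppargc1a lower in MSCEPO (-0.33 and -0.93), the Egln genes encoding oxygen sensors that mark HIF for destruction. Among 9 other HIF targets, Adm was higher (0.79) and Bnip3 and Ddit4 were lower (-0.70 and -0.46) in MSC, and none was called in Sham, MSCEPO or DPSC. Of 8 genes known to be induced by glucocorticoids, none was called higher in any comparison with NT, and Sgk1 was called lower in MSC (-1.26) and MSCEPO (-1.34) and Klf9 in MSCEPO (-0.55). By the paper's methods, injected dexamethasone was given before transplantation only, and the retinas were taken 31 days after it. This list is therefore no test of which rats received the drug.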

How the data were processed

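Bulk RNA was sequenced from 15 rat retina libraries, 3 in each of the groups NT, Sham, MSC, MSCEPO and DPSC. The authors quantified reads against Rnor_6.0 with Salmon 1.1.0 (k-mer 31), imported them with tximport and deposited DESeq2 rlog values, which are log2 values corrected for library size and shrunken for genes with few reads, so fold changes are understated for such genes and the depth of each library, and intervals or floors from counts, cannot be computed from them. Reads from the transplanted human cells were not analysed here. A second table of 15 columns held the same values (0 differed) and was not used, and its nameless column, which marked 88 genes, was not used either. Here, values were fitted in R 4.3.3 with limma 3.58.1 (mean-variance trend, group means, 15 libraries together, labels read with jsonlite 2.0.0) over genes with a mean rlog of at least the log2 of 10, with Benjamini-Hochberg adjustment over all 15424 genes and a call at an adjusted p under 0.05. The procedure was tested on simulated data. Fold changes and 95% intervals come from that fit. The study's added requirement of a 2-fold change was an alternative. Genes called in at least 1 of 8 comparisons were given in every library, up to 14, and of each pathway or marker list up to 3 genes with the lowest adjusted p were named, with exceptions stated. Values of single pairs were compared by two-sided exact permutation tests. Gapdh and several other glycolytic genes have processed pseudogenes, and how reads shared with near-identical copies were split cannot be read from these values. The genes of the set, the lists and the tests were chosen with earlier results of these data known. Alternatives were another filter, other samples in the fit, a replicate block, median centring, quantile normalization, array weights, leaving out each library and leaving out the libraries with high lens markers, the last chosen after seeing the data. No 2 libraries were identical among 105 pairs. Promoters came from RefSeq (GRCr8), matched by symbol.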

Additional observations from a re-analysis of the deposited data

How the results depend on the processing

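None of the 27 called differences changed sign under any alternative: of 240 values under other settings, 209 kept their call and 31 lost it, and of 162 values with 1 library left out, 107 kept it and 55 lost it. Over all 34 genes and 8 comparisons, 88 of 2380 values under other settings and 125 of 1632 with 1 library left out changed sign. All of them were differences between -0.25 and 0.29 that were not called in the fit of all 15 libraries. Of the 88, however, 2 were called under the other setting. Among the changes were Hk1 (-0.04 to 0.09) and Slc16a7 (-0.06 to 0.26) in MSCEPO against NT without the libraries with high lens markers. Hk2, Pfkfb2 and Slc16a1 in MSC and MSCEPO against NT, and Slc16a8 in MSC, kept their calls in all 15 alternatives. Counts of called genes that moved by over 1.5 times were as follows. With the added 2-fold rule, 0, 5, 4 and 1 genes were called in Sham, MSC, MSCEPO and DPSC against NT (0.292%, 6.70%, 3.57% and 0.784% of all genes). With only the 2 groups compared, 8 were called in Sham and 5 in MSCEPO against NT (8.64% and 6.46% of all genes), and with quantile normalization 5 in MSCEPO (10.5%). With array weights, whose estimate stopped before its convergence tolerance, 15, 28 and 19 were called in Sham, MSCEPO and DPSC against NT and 17 and 3 in MSCEPO and DPSC against Sham, where 20.6%, 59.7%, 41.3%, 29.7% and 7.35% of all genes were. Without the libraries with high lens markers, 7, 16 and 10 were called in Sham, MSCEPO and DPSC against NT (4.44%, 21.8% and 10.3% of all genes), 1 in MSC and 2 in MSCEPO against Sham (2.44% and 1.85%). Leaving out each library in turn gave 0 to 1 in Sham, 8 (without NT 2) to 13 in MSC, 4 (without NT 1, NT 2 or MSCEPO 2) to 13 (without MSCEPO 3) in MSCEPO and 2 to 3 in DPSC against NT, 0 to 1 in MSC against Sham (Hk3, 1.46 without MSC 3, adjusted p = 0.0286) and 0 in MSCEPO and DPSC against Sham and in MSCEPO against MSC. The causes were not tested. Replicate numbers did not pair the libraries: deviations of same-numbered libraries correlated with a median r of -0.02 (30 pairs, -0.44 to 0.65), and the replicate block gave 3, 14, 7 and 3 genes called in Sham, MSC, MSCEPO and DPSC against NT (0.973%, 17.7%, 11.9% and 3.20% of all genes) and 0 elsewhere. Quantile normalization moved the median of all genes by at most 0.10, in MSC against NT, and the median of the 34 genes became -0.06 in Sham, -0.36 in MSC, -0.16 in MSCEPO and -0.13 in DPSC against NT, from -0.14, -0.42, -0.26 and -0.20. How far depth limits small differences could not be computed from these values, and 3 libraries a group limit all of them.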
